A study of Mus musculus with 12 samples.

Results

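The genes described here are 10 genes of fatty acid uptake and trafficking: Lpl, Gpihbp1, Angptl4, Vldlr, Cd36, Slc27a1, Slc27a4, Fabp4, Fabp5 and Acsl1. They were taken from a count table of 52550 genes by matching each Ensembl identifier to its symbol, and each of the 10 was matched to 1 row. Polyadenylated RNA was sequenced from inguinal white adipose tissue (WAT) and from brown adipose tissue (BAT) of mice, in 12 libraries. In each depot the controls were 3 libraries of Mcu fl/fl mice, whose Mcu gene carries loxP sites, and they were compared with 3 libraries from Mcu fl/fl AKO mice, in which Mcu was deleted in adipose tissue. Mcu encodes the pore of the mitochondrial calcium uniporter. Both genotypes were on a high-fat diet per the series' design text, which asks how their expression profiles differ. Which promoter drove the deletion, which exon it removed, and the age and sex of the mice were not given in the sources used here. Nothing in the labels says that the replicates came from separate animals. The p-values therefore measure the spread between libraries, which may not be the spread between animals.

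Fat tissue takes most of its fatty acids from triglyceride carried in blood by lipoproteins. Lipoprotein lipase, made by adipocytes, is carried by GPIHBP1 to the luminal face of capillary endothelial cells, where it hydrolyses that triglyceride; ANGPTL4 inactivates the enzyme, and the VLDL receptor binds the lipoproteins themselves. The released fatty acids cross endothelium and adipocyte membrane with the help of CD36 and the fatty acid transport proteins, are carried in the cytosol by the fatty acid binding proteins, and are activated to acyl-CoA by enzymes such as ACSL1 before storage or oxidation. White fat stores most of this supply, and brown fat burns much of it for heat.

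Mcu itself differed between the genotypes as labelled. Its level was 18.3, 19.0 and 19.2 CPM (counts scaled to library size, with TMM normalisation) in the WAT controls and 10.1, 12.6 and 10.9 CPM in WAT AKO. In BAT it was 25.9, 29.0 and 23.6 CPM in controls and 9.62, 14.3 and 8.13 CPM in AKO, so the genotypes did not overlap in either depot. Mcu did not pass the test adjusted over all genes (edgeR): its log2 fold change was -0.75 ± 0.127 in WAT (adjusted p = 0.0799) and -1.27 ± 0.222 in BAT (0.202). Total counts ran from 15692588 to 18967159 per library. Summed adipocyte markers were at 17206 to 28453 CPM in every library, and summed brown adipocyte markers at 6985 to 8935 CPM in BAT against 74.5 to 107 CPM in WAT. Some libraries held skeletal muscle transcripts: 10 muscle markers made up 1.22% of the reads of WAT control 1, 2.15% of those of WAT AKO 2 and 1.62% of those of BAT AKO 2. No other library exceeded 0.305%. These are bulk samples, so fewer cells of a type and less RNA per cell cannot be told apart.

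The 10 genes together took 2.88% to 3.00% of all counts in the WAT controls, 2.29% to 2.70% in WAT AKO, 1.41% to 1.70% in the BAT controls and 1.57% to 1.74% in BAT AKO. Levels of different genes were compared per length, as the deposited FPKM values, which are scaled by gene length. These shares and FPKM values rest on raw library totals without TMM, so their differences between groups can depart from the tests below. Among AKO libraries, Fabp4 was lower in BAT than in WAT by FPKM, while its tested log2 fold change was 0.07. Fabp4 was the most abundant of the 10 in each group, at 2545 ± 80.1 FPKM (SD, n = 3) in the WAT controls, 2411 ± 39.5 in WAT AKO, 1662 ± 133 in the BAT controls and 1699 ± 107 in BAT AKO. Cd36 came next, at 953 ± 150 FPKM in the WAT controls and 527 ± 66.2 in the BAT controls. In WAT, Lpl overlapped Cd36 in both genotypes, at 884 ± 87.2 FPKM in controls and 669.5 ± 170.1 in AKO. In BAT, Lpl stood below Cd36 and overlapped Acsl1: Lpl was at 246 ± 62.1 FPKM and Acsl1 at 232 ± 29.2 in controls.

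The middle of the order differed between groups. In the WAT controls Angptl4 (263 ± 53.2 FPKM) and Acsl1 (254 ± 46.8) overlapped each other and stood above Slc27a1 (149.6 ± 41.6). In WAT AKO the FPKM of Slc27a1 (227 ± 12.1), Acsl1 (208 ± 24.9) and Angptl4 (202 ± 19.3) overlapped from each to the next. Gpihbp1 (66.4 ± 23.2 FPKM) overlapped Fabp5 (80.1 ± 9.09) in the WAT controls and Slc27a1 in both BAT groups, where Gpihbp1 was at 73.5 ± 6.82 FPKM in controls and 56.2 ± 11.1 in AKO. In BAT, Fabp5 was at 23.4 ± 4.07 FPKM in controls and 24.4 ± 3.81 in AKO, apart from both neighbours in the order. Vldlr and Slc27a4 were the least abundant of the 10 in each group, Vldlr between 12.5 and 20.3 FPKM and Slc27a4 between 9.99 and 15.1 FPKM as group means, and they overlapped each other only in WAT AKO.

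**Figure D1:**
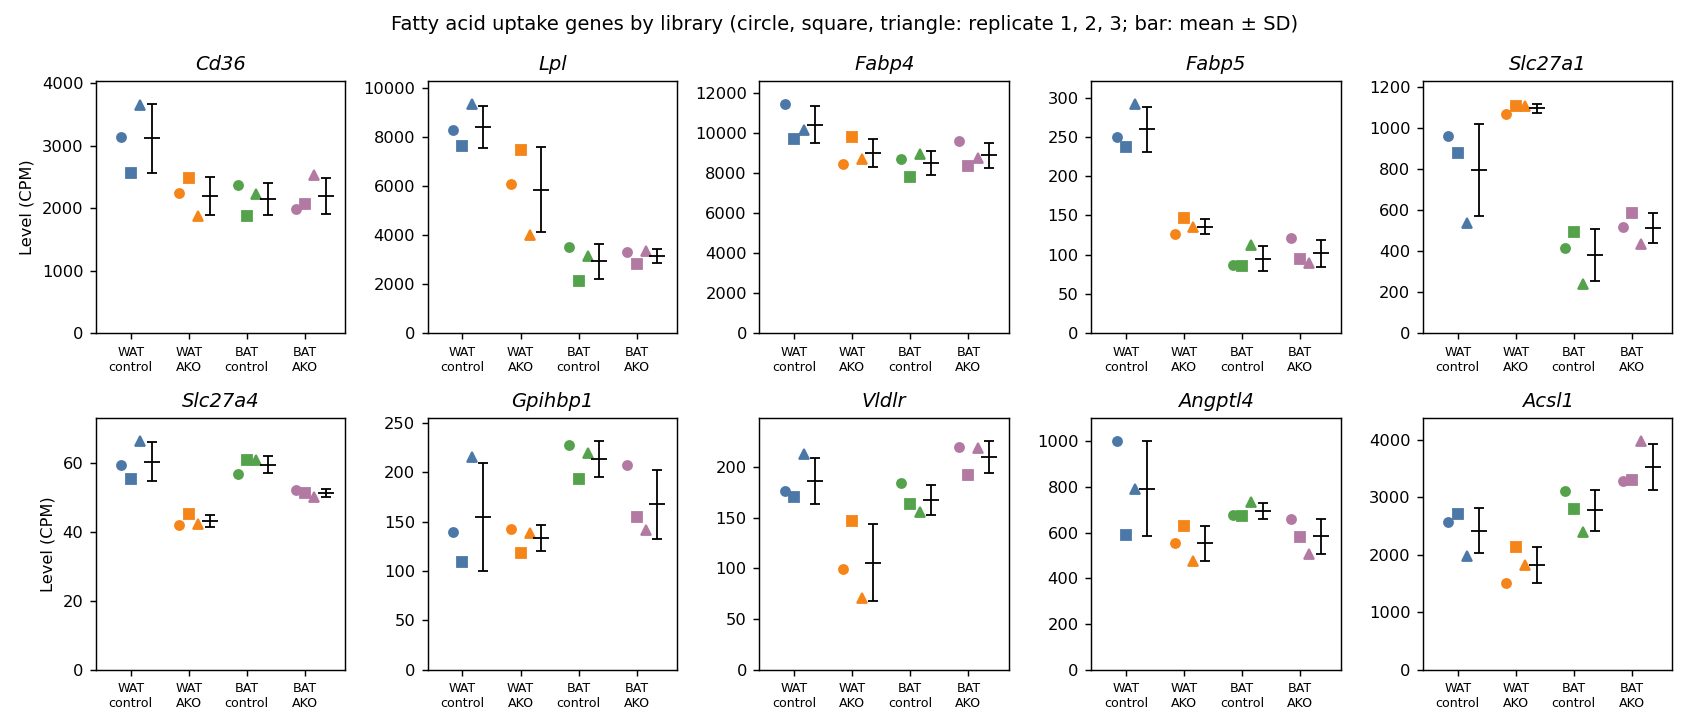
Level of each of the 10 genes in every library (CPM, vertical axis from 0) by group, with replicates 1, 2 and 3 as separate symbols and a bar for the mean and SD. Fabp5 shows the WAT controls at 237 to 292 CPM above the other 9 libraries at 85.4 to 146 CPM.

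In WAT, no gene of the 10 passed the test for AKO against control (adjusted p under 0.05, edgeR's quasi-likelihood test with Benjamini-Hochberg adjustment over all 15915 genes tested), against 0.0189% of all genes. All 10 passed the filter on low counts. The log2 fold change was below 0 for 9 of the 10, against 49.5% of all genes, with Slc27a1 as the exception. The median over the 10 was -0.50 against 0.00 over all genes. For 5 of the 10 each AKO library lay below each control (16.6% of all genes), and for 1, Slc27a1, above (14.1% of all genes). At an unadjusted p under 0.05, 4 of the 10 were lower and 0 higher, against 12% and 10.6% of all genes. The call depended on the method. DESeq2 called 3 of the 10, and 1679 of the 15915 genes. A fit of all 12 libraries together called 3 of the 10, and 1030 of 16391 genes. In both these were Fabp5, Slc27a4 and Vldlr, all lower in AKO. Markers of other cells also lay to one side in WAT AKO, with 0 called. All 6 progenitor markers were below 0 (median -0.62), with a sum of 842 to 1366 CPM in controls and 742 to 776 CPM in AKO. Of 10 lymphocyte markers 9 were above 0 (median 1.83), with overlapping sums of 779 to 1255 CPM in controls and 1060 to 1735 CPM in AKO. No such marker was at 0 in WAT, and their part in the values of the 10 genes was not tested.

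In BAT, no gene of the 10 passed the same test for AKO against control, against 0.0771% of 14265 genes tested, and DESeq2 called none either. Here 3 of the 10 had a log2 fold change below 0 (48.4% of all genes), and the median was 0.09 against 0.01 over all genes. Vldlr and Acsl1 were higher in each AKO library than in each control (10.2% of all genes), and Slc27a4 and Angptl4 lower (9.86% of all genes). At an unadjusted p under 0.05, 2 of the 10 were higher and 2 lower, against 7% and 6.62% of all genes.

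**Figure D2:**
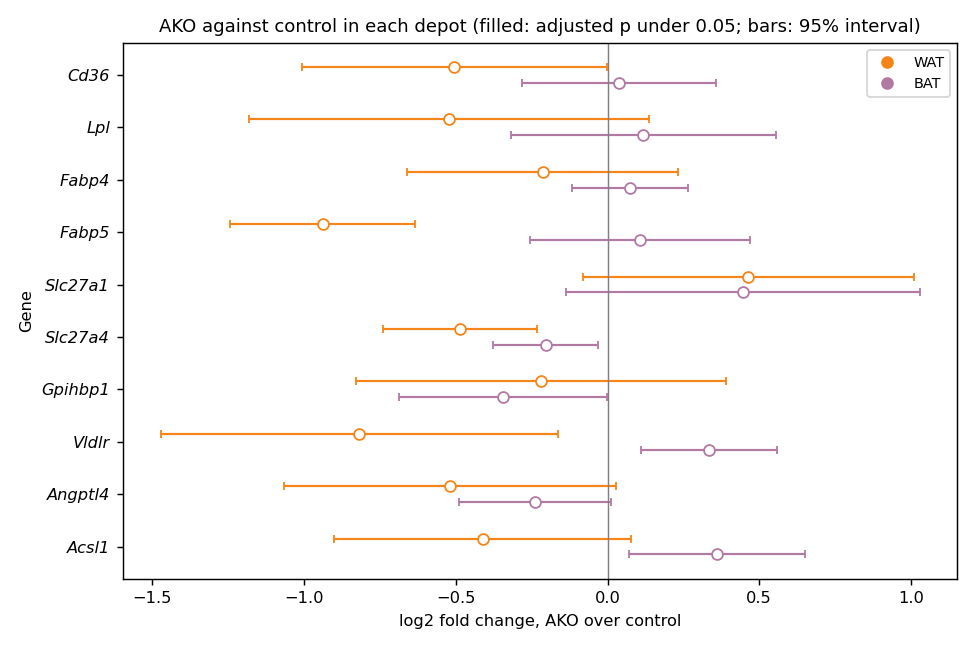
Log2 fold change of AKO over control for each of the 10 genes in WAT and in BAT, with 95% intervals from the edgeR fit (horizontal axis, log2 scale; vertical line at 0). In WAT 9 of 10 points lie left of 0 and Fabp5 lies farthest left at -0.94, while in BAT 7 of 10 lie right of 0, and no point passed the adjusted threshold.

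Of the genes that act at the capillary wall, Lpl (chr8:68880491-68907448, plus strand, mm10, as for all genes below), which encodes lipoprotein lipase, was at 8276, 7653 and 9353 CPM in the WAT controls and 6095, 7462 and 4022 CPM in WAT AKO. Each AKO library was below each control, AKO 2 by a small margin, and the AKO libraries spread widely. AKO differed from control by -0.52 ± 0.274 on the log2 scale (SE; adjusted p = 0.301). The highest AKO value was that of the library with most muscle transcripts; without it and WAT control 1 the difference was -0.76 (adjusted p = 0.371). In BAT the level of Lpl was 3506, 2116 and 3159 CPM in controls and 3299, 2835 and 3351 CPM in AKO. The BAT groups overlapped, and the difference of 0.12 (adjusted p = 0.803) was smaller than its SE of 0.186.

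Gpihbp1 (chr15:75596628-75599481, plus strand), whose product holds lipoprotein lipase on capillaries, was at 139, 109 and 216 CPM in the WAT controls and 143, 119 and 139 CPM in WAT AKO. The WAT groups overlapped, with 1 control, replicate 3, above the other 5 libraries. The same library had the highest sum of 10 endothelial markers, 2184 CPM against 859 to 1217 CPM in the other 5 WAT libraries, and the part of this in the result was not tested. The log2 fold change was -0.22 ± 0.254 (adjusted p = 0.625), and without WAT control 3 it turned to 0.10. In BAT, Gpihbp1 was at 228, 193 and 219.9 CPM in controls and 207, 155 and 141 CPM in AKO, a log2 fold change of -0.34 ± 0.145 (adjusted p = 0.365) with 1 AKO library inside the control range.

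As a share of the endothelial sum, Gpihbp1 stood at 114, 99.0 and 98.8 counts per 1000 endothelial counts in the WAT controls and at 122, 138 and 117 in WAT AKO. On this scale all AKO libraries were above the controls, by 0.27 on the log2 scale (exact two-sided permutation test, p = 0.1, the smallest that 3 against 3 libraries allow; 0.145 adjusted over 16 such tests). In BAT the ratios were 120, 86.7 and 105 per 1000 in controls and 105, 87.5 and 90.8 in AKO, and overlapped. No endothelial marker was at 0 in any group. All 10 endothelial markers had a log2 fold change below 0 in WAT AKO (median -0.55), against 49.5% of all genes. Their sums overlapped there, at 1106 to 2184 CPM in controls and 859 to 1185 CPM in AKO. Of the 10, 3 lay apart as lower (16.6% of all genes) and 0 as higher (14.1%). In BAT AKO 8 of 10 were below 0 (median -0.18), against 48.4% of all genes, and 0 passed the test in either depot.

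Angptl4 (chr17:33773750-33781830, minus strand), which encodes a secreted inhibitor of lipoprotein lipase, was at 1002, 588 and 789 CPM in the WAT controls and 553, 631 and 476 CPM in WAT AKO. The groups overlapped through WAT control 2 and AKO 2, and the log2 fold change was -0.52 ± 0.228 (adjusted p = 0.237). The BAT levels were 676, 672 and 734 CPM in controls and 662, 583 and 508 CPM in AKO. Each BAT AKO library was below each control, by -0.24 ± 0.107 (adjusted p = 0.383), and the nearest AKO library lay close under the controls. Counts of Angptl4 per 1000 counts of Lpl were 121, 76.8 and 84.3 in the WAT controls and 90.6, 84.5 and 118 in WAT AKO, which overlapped. They were 193, 318 and 232 in the BAT controls and 200, 206 and 152 in BAT AKO, which overlapped too.

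Vldlr (chr19:27216484-27254231, plus strand), the receptor that binds triglyceride-rich lipoproteins, was at 176, 170.0 and 212 CPM in the WAT controls and 99.5, 146 and 70.7 CPM in WAT AKO. All AKO libraries were below the controls, and they differed among themselves more than the controls did. The log2 fold change was -0.82 ± 0.273 (adjusted p = 0.164). AKO 2, the library with most muscle transcripts in that group, was the highest of the AKO libraries; without it and WAT control 1 the difference was -1.18 (adjusted p = 0.252). In BAT the order was the opposite one: 184, 164 and 155 CPM in controls and 220.2, 192 and 218 CPM in AKO. Here each AKO library was above each control, by 0.33 ± 0.0956 (adjusted p = 0.274).

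Cd36 encodes a scavenger receptor that takes up long-chain fatty acids. The gene lies at chr5:17781690-17888801 on the minus strand. Its level was 3145, 2556 and 3657 CPM in the WAT controls and 2244, 2481 and 1875 CPM in WAT AKO. Each AKO library was below each control, though AKO 2 lay close to control 2, and the log2 fold change was -0.50 ± 0.209 (adjusted p = 0.219). In BAT, Cd36 was at 2372, 1871 and 2219.6 CPM in controls and 1984, 2069 and 2528 CPM in AKO. Those groups overlapped, with a difference of 0.04 and a 95% interval of -0.28 to 0.36 (adjusted p = 0.920).

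Slc27a1 (chr8:71568882-71587302, plus strand) and Slc27a4 (chr2:29802634-29817522, plus strand) encode the fatty acid transport proteins FATP1 and FATP4, which join uptake to acyl-CoA formation. Slc27a1 was at 964, 881 and 539 CPM in the WAT controls and 1071, 1108 and 1110.0 CPM in WAT AKO. It was the only one of the 10 higher in WAT AKO, in all 3 libraries, which lay close together while control 3 lay far below the other 2. AKO exceeded control by 0.46 ± 0.227 on the log2 scale (adjusted p = 0.273). Its BAT levels were 413, 491 and 240.0 CPM in controls and 517, 585 and 435 CPM in AKO, a difference of 0.45 ± 0.248 (adjusted p = 0.453). The BAT groups overlapped, and control 3 was again the lowest library.

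Slc27a4 was at 59.6, 55.4 and 66.6 CPM in the WAT controls and 42.1, 45.4 and 42.3 CPM in WAT AKO. All AKO libraries lay below the controls, and the replicates were tight in both groups. The log2 fold change was -0.49 ± 0.105 (adjusted p = 0.101); without WAT control 2 it was -0.57 and passed the test (adjusted p = 0.0354). In BAT it was at 56.9, 61.0 and 61.0 CPM in controls and 52.4, 51.5 and 50.1 CPM in AKO. Those AKO libraries were also all below the controls, by -0.20 ± 0.0735 (adjusted p = 0.334). The sum of 12 macrophage markers, which ran at 1446 to 2061 CPM in the WAT controls and 1157 to 1351 CPM in WAT AKO, and at 357 to 469 and 268 to 319.7 CPM in the BAT groups, was lower in AKO in both depots as well, and its part in the Slc27a4 values was not tested.

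The 2 transporters thus stood on opposite sides of 0 in both depots. Within a library, Slc27a4 had 61.8, 62.9 and 124 counts per 1000 counts of Slc27a1 in the WAT controls and 39.3, 41.0 and 38.1 in WAT AKO. In BAT the same ratio was 138, 124 and 254 per 1000 in controls and 101, 88.1 and 115 in AKO. The AKO libraries were below the controls in WAT (log2 difference -0.99) and in BAT (-0.69), each with an exact two-sided permutation p of 0.1, the smallest this design allows, and 0.145 adjusted over the 16 ratio tests. In both control groups replicate 3 had the highest ratio, so that the size of the difference rests in part on that number: leaving out each library in turn gave -1.16 to -0.66 in WAT and -0.89 to -0.37 in BAT.

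The promoters of these 3 transporter genes are shown because the WAT AKO libraries lay below the controls for Cd36 and Slc27a4 and above them for Slc27a1. None of the 3 passed the test in WAT. Each window is the 250 bases before a RefSeq transcription start in GRCm38.p6, printed 5′ to 3′ on the gene's strand, and capitals mark motif matches on either strand. The motifs were GGGCGG (a GC box, bound by SP1), CCAAT (the promoter box bound by NF-Y), AGGTCA (the core letters that PPARs and other nuclear receptors bind) and the direct repeat that PPAR and RXR bind together, searched as 2 AGGTCA in the same direction with any 1 base between them. A match of the repeat would also count as AGGTCA.
Cd36, chr5:17835897-17836146, minus strand: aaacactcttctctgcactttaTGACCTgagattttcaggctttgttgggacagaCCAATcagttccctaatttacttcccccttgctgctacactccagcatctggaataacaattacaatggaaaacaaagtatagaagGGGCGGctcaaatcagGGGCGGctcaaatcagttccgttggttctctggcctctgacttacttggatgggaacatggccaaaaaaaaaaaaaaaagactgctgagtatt
Slc27a4, chr2:29802384-29802633, plus strand: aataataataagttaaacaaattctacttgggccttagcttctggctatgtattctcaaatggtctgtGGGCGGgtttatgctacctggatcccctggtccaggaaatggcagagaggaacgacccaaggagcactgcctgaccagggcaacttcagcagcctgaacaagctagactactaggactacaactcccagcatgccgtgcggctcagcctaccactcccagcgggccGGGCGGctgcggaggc
Slc27a1, chr8:71568621-71568870, plus strand: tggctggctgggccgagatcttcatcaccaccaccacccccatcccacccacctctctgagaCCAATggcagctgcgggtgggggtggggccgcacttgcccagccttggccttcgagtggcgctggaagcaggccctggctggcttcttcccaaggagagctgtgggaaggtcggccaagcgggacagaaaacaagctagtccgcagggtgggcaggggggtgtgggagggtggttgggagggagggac
The Cd36 window lies inside the annotated gene span, upstream of a later start, and held 1 AGGTCA (as its reverse complement), 2 GC boxes and 1 CCAAT box. The Slc27a4 window held 2 GC boxes. The Slc27a1 window shown held 1 CCAAT box and no GC box, but the other 2 windows listed for Slc27a1 held 1 GC box (chr8:71569347-71569596) and 3 GC boxes with 1 CCAAT box (chr8:71570344-71570593). The GC content of the 3 printed windows was 43.2%, 54.4% and 66.4%, against a median of 52.4% over all 32851 windows in the table. The table listed 9 windows for 5 of the 10 genes (Acsl1, Cd36, Slc27a1, Slc27a4 and Vldlr). A GC box was in 6 of the 9 (32.7% of all windows), a CCAAT box in 5 (33.8%), AGGTCA in 1 (14.0%) and the direct repeat in 0 (0.0335%). These matches are descriptions of letters and show no binding.

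Fabp4 (chr3:10204088-10208576, minus strand) encodes the main cytosolic fatty acid carrier of adipocytes. It was at 11449, 9679.9 and 10127 CPM in the WAT controls and 8468, 9802 and 8701 CPM in WAT AKO. The groups overlapped, and the log2 fold change was -0.21 ± 0.185 (adjusted p = 0.507). In BAT it was at 8686, 7811 and 8971 CPM in controls and 9574, 8342 and 8741 CPM in AKO, a difference of 0.08 with a 95% interval of -0.12 to 0.27 (adjusted p = 0.707). Of the 10 genes, Fabp4 varied least over the 12 libraries, with a root mean square spread of 0.131 on the log2 scale against 0.672 for Lpl, which varied most.

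Fabp5 (chr3:10012548-10016607, plus strand), the epidermal fatty acid binding protein, is made by macrophages and endothelial cells as well as by fat cells. It was at 250.4, 237 and 292 CPM in the WAT controls and 126, 146 and 135 CPM in WAT AKO. The groups were far apart against their spread, and the log2 fold change of -0.94 ± 0.127 had the smallest p of the 10 (adjusted p = 0.0705). It passed the test in 4 of 14 alternatives: without the filter on low counts (adjusted p = 0.0288), with all 12 libraries in 1 fit (0.0115), by DESeq2 (1.41e-08), and without WAT control 2 (-1.02; 0.0148). Over the 14 alternatives the log2 fold change ran from -1.04 to -0.84 and the adjusted p up to 0.305. In BAT, Fabp5 was at 86.2, 85.4 and 113 CPM in controls and 121, 94.6 and 89.4 CPM in AKO. Those groups overlapped, with a difference of 0.11 and a 95% interval of -0.25 to 0.47 (adjusted p = 0.785).

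Relative to Fabp4, Fabp5 stood at 21.9, 24.5 and 28.9 counts per 1000 Fabp4 counts in the WAT controls and at 14.9, 14.9 and 15.5 in WAT AKO. The AKO libraries were below the controls by -0.72 on the log2 scale (exact two-sided permutation p = 0.1, the smallest possible here; 0.145 adjusted over 16). In BAT the ratio was 9.92, 10.9 and 12.6 in controls and 12.6, 11.3 and 10.2 in AKO, and overlapped. Macrophage markers moved the same way as Fabp5 in WAT: 11 of 12 had a log2 fold change below 0 in AKO (49.5% of all genes), with a median of -0.66. Of the 12, 10 were lower without overlap (16.6% of all genes), although 0 passed the test. In BAT, where Fabp5 overlapped, 11 of 12 macrophage markers were also below 0 (48.4% of all genes), with a median of -0.51. No macrophage marker was at 0 in any group, and the part of macrophages in the Fabp5 result was not tested. Counts of Fabp5 can include reads of near-identical processed pseudogenes: Gm6166 matched it at 98.3% over 409 bases and had 250 counts over the 12 libraries, and Gm14328 matched at 97.3% and had 47, beside 32543 for Fabp5.

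Acsl1 (chr8:46471037-46536051, plus strand), the main long-chain acyl-CoA synthetase of adipocytes, was at 2577, 2702 and 1975 CPM in the WAT controls and 1505, 2138 and 1815 CPM in WAT AKO. The WAT groups overlapped through AKO 2 and control 3, and the log2 fold change was -0.41 ± 0.204 (adjusted p = 0.280). Acsl1 in BAT was at 3114, 2803 and 2398 CPM in controls and 3276, 3304 and 3986 CPM in AKO. Each BAT AKO library was above each control, by 0.36 ± 0.123 (adjusted p = 0.323). On the opposite strand Acsl1 shares 1039 exon bases with the predicted gene Gm45244, which had 26 counts in all beside 526779 for Acsl1.

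**Figure D3:**
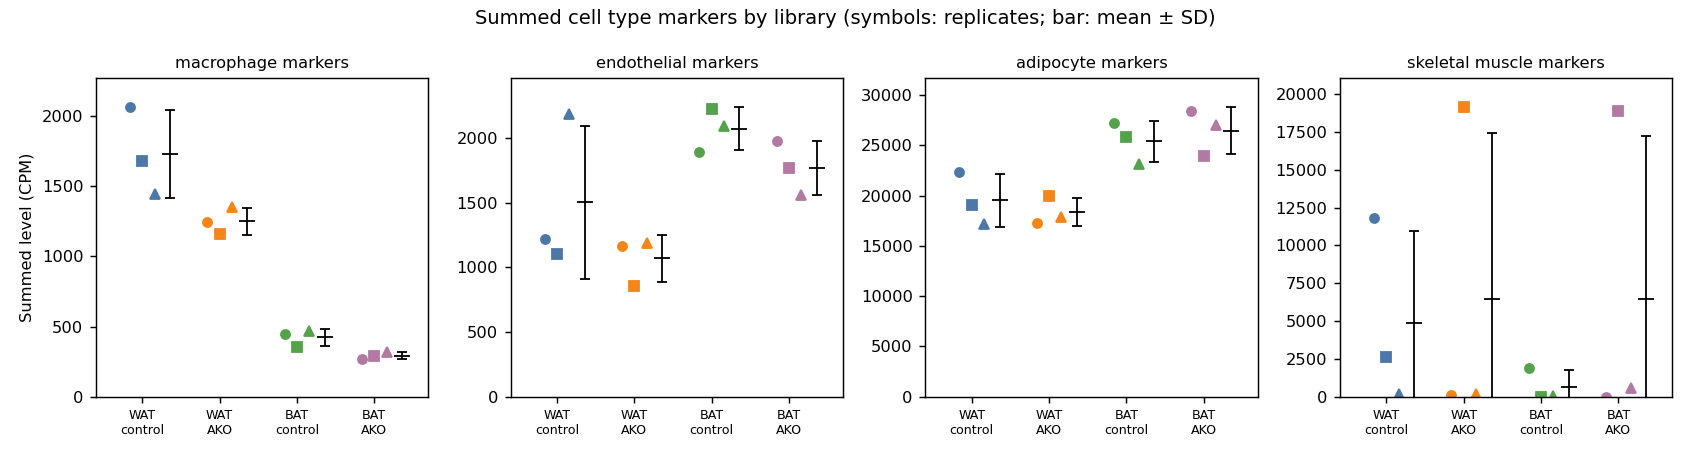
Summed level (CPM, vertical axis from 0) of macrophage, endothelial, adipocyte and skeletal muscle markers in every library by group, with replicates as symbols and a bar for the mean and SD. Macrophage sums were 1446 to 2061 CPM in the WAT controls, 1157 to 1351 CPM in WAT AKO and 469 CPM or less in BAT, and muscle sums reached 19122 CPM in WAT AKO 2.

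The difference between the AKO effects in the 2 depots was tested directly, as the BAT log2 fold change minus that in WAT over all 12 libraries. None of the 10 passed, against 0.275% of 16391 genes tested. An unadjusted p under 0.05 was found for 3 of the 10, all higher in BAT (8.34% of all genes). DESeq2 called those 3, and 965 of the 16391 genes. Vldlr had the largest difference, 1.12 ± 0.299 (adjusted p = 0.111), followed by Fabp5 with 1.01 ± 0.202 (0.0742) and Acsl1 with 0.73 ± 0.242 (0.158). For Vldlr the AKO libraries lay below the controls in WAT and above them in BAT. Without WAT AKO 2 the Vldlr difference was 1.42 and passed (adjusted p = 0.0345). With the replicate number as a block within each genotype, added after seeing the data, Fabp5 passed, at 1.01 (adjusted p = 0.0334). Whether libraries of the same number in the 2 depots share an animal was not given. Of the other 7, 5 lay above 0 (Lpl 0.60, Cd36 0.50, Fabp4 0.25, Slc27a4 0.24 and Angptl4 0.24) and Gpihbp1 (-0.17) and Slc27a1 (-0.06) below, none past the threshold.

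The depots were also compared within each genotype. These comparisons share libraries with those of AKO against control, so their values are given side by side and no agreement between them is counted. Among the controls 3 of the 10 were called, all lower in BAT, where 25.7% of all 15031 genes tested were called lower and 24.4% higher. Among the AKO libraries 6 of the 10 were called, 4 higher and 2 lower in BAT, where 28.8% of 15671 genes were called higher and 30.5% lower. With the replicate number as a block the count among controls was 5, with 4 lower and 1 higher, and among AKO it stayed at 6. Without overlap between depots, 5 of the 10 were lower in BAT and 0 higher among controls (32.7% and 28.8% of all genes), and 4 were higher and 3 lower among AKO (31.2% and 36.3%).

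**Figure D4:**
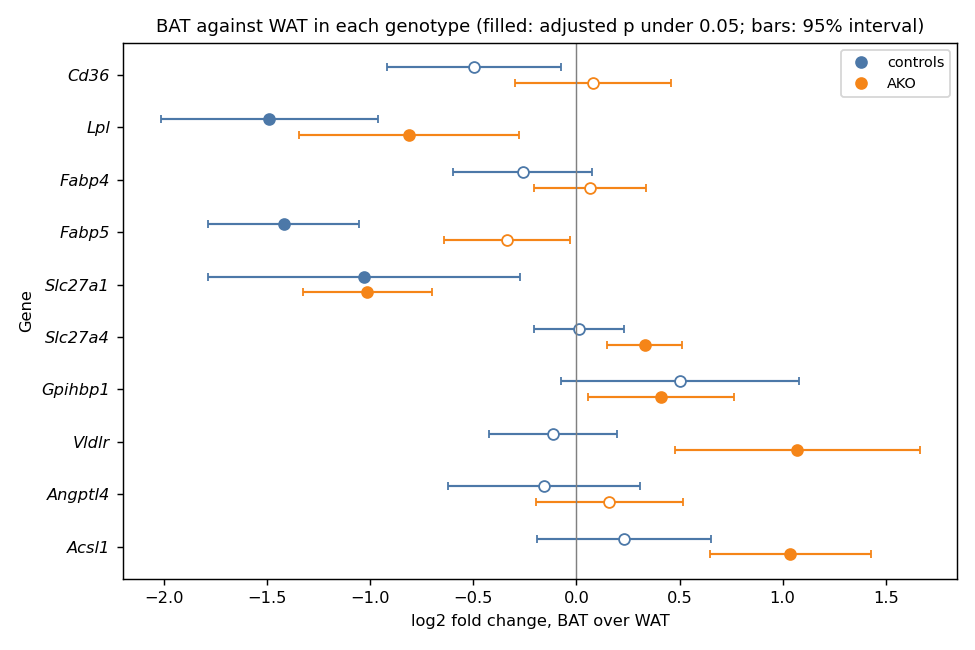
Log2 fold change of BAT over WAT for each of the 10 genes in controls and in AKO, with 95% intervals from the edgeR fit (horizontal axis, log2 scale; filled points have an adjusted p under 0.05). Lpl and Slc27a1 are filled left of 0 in both genotypes, Fabp5 is filled at -1.42 in controls and open at -0.34 in AKO, and Acsl1 and Vldlr are filled right of 0 in AKO, at 1.04 and 1.07.

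Lpl and Slc27a1 were lower in BAT in both genotypes. The log2 fold change of Lpl was -1.49 ± 0.222 in controls (adjusted p = 0.00178) and -0.81 ± 0.228 in AKO (0.0169). In AKO the call for Lpl was lost without BAT AKO 1 (-0.82; adjusted p = 0.0565), without BAT AKO 2 (-0.74; 0.0543), and without the muscle-rich library of each group, AKO 2, together (-0.52; 0.0623). That of Slc27a1 was -1.03 ± 0.318 in controls (0.0326) and -1.01 ± 0.134 in AKO (0.00048). In controls the Slc27a1 call was lost in 5 of 14 alternatives: without WAT control 1 (-0.84; 0.0914), WAT control 2 (-0.94; 0.0768), BAT control 1 (-1.09; 0.0750) or BAT control 3 (-0.77; 0.0769), and without replicate 1 of both depots (-0.91; 0.155). In AKO it held in all 14.

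Fabp5 was lower in BAT among controls by -1.42 ± 0.155 (adjusted p = 0.00048), with 85.4 to 113 CPM in BAT against 237 to 292 CPM in WAT. Among AKO libraries the groups did not overlap either, with 89.4 to 121 CPM in BAT against 126 to 146 CPM in WAT, and the difference of -0.34 ± 0.130 missed the threshold (adjusted p = 0.0571); it passed in 6 of 14 alternatives. All 12 macrophage markers were called lower in BAT in both genotypes (25.7% of all genes in controls and 30.5% in AKO). Their medians were -1.94 in controls and -1.70 in AKO, and their part in the Fabp5 difference was not tested. Cd36 was lower in each BAT control than in each WAT control, by -0.50 ± 0.178 (adjusted p = 0.0532; -0.49 and 0.0306 with the replicate block), and overlapped in AKO at 0.08 (adjusted p = 0.693).

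Acsl1 and Vldlr were called higher in BAT in AKO and not in controls. Acsl1 differed by 1.04 ± 0.166 in AKO (adjusted p = 0.00126) and by 0.23 ± 0.178 in controls (0.315). Vldlr differed by 1.07 ± 0.253 in AKO (0.00795) and by -0.11 ± 0.131 in controls (0.493). Both calls held in all 14 alternatives; the test of the difference between genotypes is the test of the AKO effects above, which neither passed by edgeR and both passed by DESeq2. Slc27a4 was called higher in BAT AKO by 0.33 ± 0.0777 (0.00772) and differed by 0.01 in controls, with a 95% interval of -0.21 to 0.23; the AKO call was lost without the filter on low counts (0.29; 0.0504).

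Gpihbp1 was higher in BAT by 0.41 ± 0.151 in AKO (adjusted p = 0.0476) and by 0.50 ± 0.244 in controls (0.128; 0.55 and 0.0358 with the replicate block). The AKO groups of Gpihbp1 lay apart when normalised over those 6 libraries and overlapped when normalised over all 12 (BAT 141 CPM, WAT 143 CPM). By FPKM they overlapped too, with a lower mean in BAT AKO (56.2) than in WAT AKO (63.3). The AKO call was lost in 9 of 14 alternatives, among them leaving out each of WAT AKO 1, 2 and 3 and BAT AKO 1 and 2, which gave 0.26 to 0.47 with adjusted p of 0.0567 to 0.141. Among controls the call was gained without WAT control 3 (0.81; 0.00842). Of the 10 endothelial markers, 3 were called higher in BAT among controls (24.4% of all genes) and 7 among AKO libraries (28.8%), and 0 lower. Against the endothelial sum, Gpihbp1 overlapped between depots in controls and was lower in BAT among AKO libraries, by -0.42 on the log2 scale (exact permutation p = 0.1, adjusted 0.145). Fabp4 and Angptl4 were not called in either genotype: Fabp4 differed by -0.26 in controls (0.166) and 0.07 in AKO (0.645), and Angptl4 by -0.16 (0.534) and 0.16 (0.397).

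Per count of Lpl, Angptl4 was higher in BAT: the ratio did not overlap between depots in controls (193 to 318 per 1000 in BAT against 76.8 to 121 in WAT, log2 difference 1.39) or in AKO (152 to 206 against 84.5 to 118, 0.93). Each had an exact two-sided permutation p of 0.1, the smallest possible, and 0.145 after adjustment. Slc27a4 per Slc27a1 was also higher in BAT, by 1.06 in controls and 1.36 in AKO with the same p, though BAT control 2 (124.4 per 1000) lay next to WAT control 3 (123.6).

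**Figure D5:**
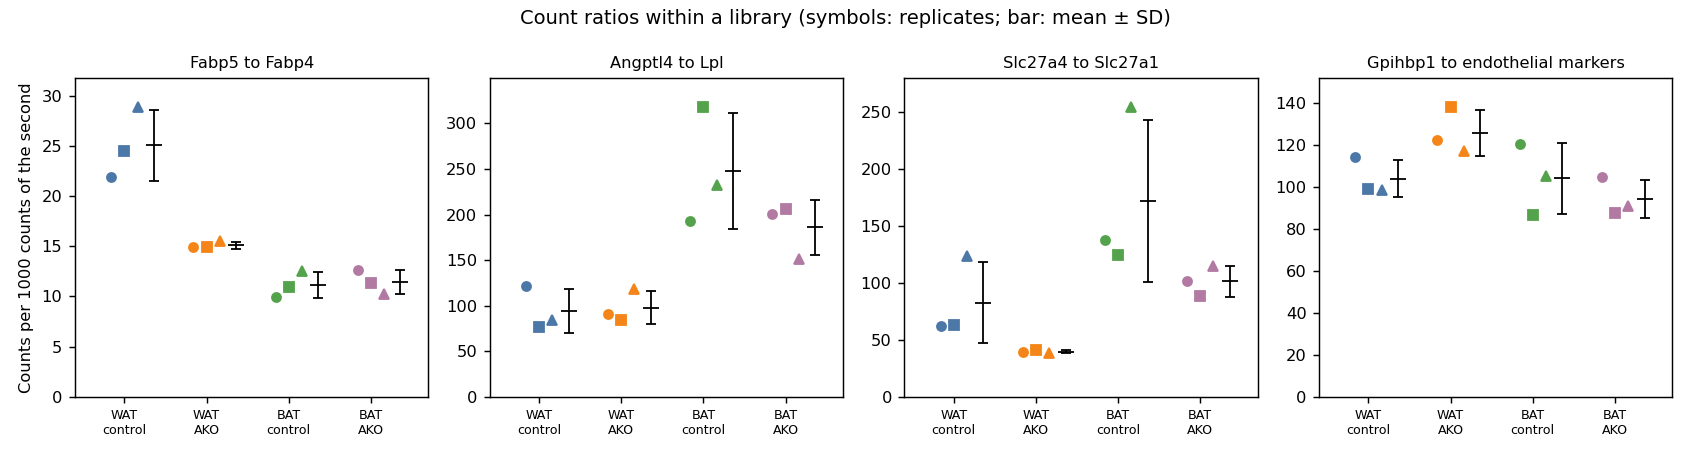
Counts of 1 gene per 1000 counts of another gene or marker sum in the same library (vertical axis from 0), by group, with replicates as symbols and a bar for the mean and SD. Fabp5 per Fabp4 was 21.9 to 28.9 in the WAT controls and 15.5 or less in the WAT AKO and BAT libraries, and Angptl4 per Lpl was 121 or less in WAT and 152 or more in BAT.

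Other genes of the pathway were taken from a list of 41. In WAT, 35 were tested; 27 had a log2 fold change below 0 (49.5% of all genes) with a median of -0.26, and 0 passed the test in either direction. At an unadjusted p under 0.05, 11 were lower and 0 higher, against 12% and 10.6% of all genes. The smallest p belonged to Lipa, the lysosomal acid lipase, at 92.0, 92.7 and 89.4 CPM in controls and 53.4, 49.3 and 48.3 CPM in AKO (-0.86 ± 0.0878, adjusted p = 0.0634). Angptl8, which takes part in the inhibition of lipoprotein lipase, differed by -1.55 (adjusted p = 0.0942) and Hilpda, an inhibitor of adipose triglyceride lipase, by -0.64 (0.109). Angptl8 was low, at 5.61 to 12.1 CPM in controls and 2.76 to 3.07 CPM in AKO. DESeq2 called these 3.

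In BAT, 34 of the 41 were tested; 17 lay above and 17 below 0 (48.4% of all genes were below), and 0 passed. At an unadjusted p under 0.05, 6 were higher and 3 lower, against 7% and 6.62% of all genes. Acsl3, an acyl-CoA synthetase of the endoplasmic reticulum and lipid droplets, was at 14.8, 23.2 and 12.7 CPM in controls and 31.9, 33.8 and 34.9 CPM in AKO (1.01 ± 0.205, adjusted p = 0.225; 1.28 and 0.0290 without BAT control 2). Ppard, a fatty acid receptor of the nucleus, was lower in all AKO libraries (-0.35; 0.247), Apoe, a ligand of lipoprotein receptors, higher (0.36; 0.258), and Furin, a protease that cleaves lipoprotein lipase and its inhibitors, lower (-0.33; 0.264). For the difference of the AKO effects 37 were tested and 1 passed, Lipa, at 1.23 ± 0.154 (adjusted p = 0.0228). In BAT Lipa was at 112, 146 and 126 CPM in controls and 179.6, 145 and 181 CPM in AKO. The Lipa call was lost without 1 of 6 libraries, WAT AKO 1, WAT AKO 3, BAT control 1, BAT control 3, BAT AKO 1 or BAT AKO 3 (adjusted p of 0.0508 to 0.0778, at 1.16 to 1.28), and without the muscle-rich library of each group (1.26; 0.160). Acsl3 (1.32; 0.0981) and Angptl8 (1.45; 0.0990) came next, and with the replicate block within each genotype Acsl3 (1.39; 0.0459) and Angptl8 (1.41; 0.0296) passed.

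Between depots, 16 of 34 genes of the list were called higher in BAT and 7 lower among controls, against 24.4% and 25.7% of all genes. Among AKO libraries 20 of 34 were called higher and 4 lower, against 28.8% and 30.5%. Slc27a2, the very long-chain transport protein FATP2, had 1 to 22 counts in each WAT library and 1586 to 3769 in each BAT library. Its log2 fold change was 8.98 in controls and 9.25 in AKO. With so few WAT counts 1 library moved this: it was 11.0 without WAT control 2 and 10.6 without WAT AKO 1. Slc27a2 failed the filter on low counts in WAT, so it entered the depot tests only through BAT, where it was high. It is counted among the genes called higher above, and its p-values are not given for that reason. Ppara, a nuclear receptor that drives fatty acid oxidation, was higher by 5.19 and 5.88, with 3.13 to 4.87 CPM in WAT and 96.7 to 265 CPM in BAT. Pparg (1.28), the master regulator of adipocytes, and Lmf1 (1.34), which matures lipoprotein lipase, were higher in BAT controls. Angptl8 (3.04) and Lipa (1.83) were higher in BAT AKO. Fabp3, the heart and muscle fatty acid binding protein, chosen after its values were seen, was higher by 8.18 in controls (9.27 without WAT control 1) and 8.16 in AKO (9.67 without WAT AKO 2). Its WAT counts were 173, 77 and 7 in controls and 87, 270 and 9 in AKO, and its BAT level was 1140 to 1955 CPM. In each WAT group the highest count was in the library with most muscle transcripts. WAT AKO 1 had 87 counts of Fabp3 with muscle markers at 0.0136% of its reads, against 77 counts and 0.305% in WAT control 2.

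The gene with the most similar pattern over the 12 libraries was taken as the smallest root mean square difference of log2 CPM, each gene centred on its own mean, among 9211 genes of at least 10 CPM. It was Cav2 for Lpl (0.113), S1pr1 for Gpihbp1 (0.146), Ssx2ip for Angptl4 (0.136) and Slc46a1 for Vldlr (0.159). Among the transporters it was Adam9 for Cd36 (0.0760), Celsr2 for Slc27a1 (0.216) and Mapk3 for Slc27a4 (0.0845). Dynlrb1 was nearest to Fabp4 (0.0562), Hist1h2bc to Fabp5 (0.170) and Pex13 to Acsl1 (0.148). The points share libraries and depot differences, and a gene that varies little, such as Fabp4, has small distances to many others: the median distance over all 9211 genes was 0.355 for Fabp4 and 0.747 for Lpl.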

How the data were processed

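RNA from 2 depots and 2 genotypes was measured in 12 libraries, 3 per group, with groups and replicate numbers from the sample titles. The deposited counts are whole, unnormalised reads per Ensembl gene made by the authors. The deposited FPKM values are those counts divided by gene length and library total, and were used only to order levels between genes. Per the submitters' processing notes, Bowtie2 2.2.3, HISAT2 2.1.0, HTSeq 0.6.0 and mm10 were used. Their roles, the annotation and the use of strand were not given in the sources used here, so reads of genes that overlap on opposite strands could be mixed. TRIzol was used for RNA, per the labels. Of 52550 IDs, 52403 had a symbol in GENCODE M21 of the same build, the source of gene coordinates; promoter windows are RefSeq's. Similar genes were sought with BLAST 2.17.0.

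The main test was the quasi-likelihood F-test of edgeR 4.0.16 (R 4.3.3) with TMM (filterByExpr at 10 counts and a total of 15, Benjamini-Hochberg over all genes at 0.05), on the libraries of each comparison, and all 12 for the difference of effects. The scripts were tested on simulated data. Levels are CPM with TMM factors over 12 libraries, and errors are SDs of n = 3. Ratios were tested by exact two-sided permutation (scipy 1.17.1), adjusted over 16. Alternatives were RLE, no filter, at least 2 CPM in 3 libraries, DESeq2 1.42.0, limma voom (3.58.1), the replicate number as a block, all 12 libraries in 1 fit, each library left out, and leaving out the library with most muscle counts in each group (replicate 1 of controls, 2 of AKO). A block within each genotype was added after seeing the data. Total counts of 15692588 to 18967159 limit genes of few counts most; replicates differed beyond sampling noise (chi-square per degree of freedom 16.5 to 83.4), so none was merged.

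Pairing by replicate number was checked by correlating deviations from group means over genes. Between depots same-numbered libraries correlated at 0.24 to 0.52 in controls and 0.14 to 0.68 in AKO. Different-numbered libraries ran from -0.46 to 0.07 in controls and from -0.65 to 0.43 in AKO, so the ranges overlapped in AKO. Between genotypes they did not (-0.47 to 0.22 in WAT and -0.62 to 0.11 in BAT).

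The members, lists and rules were chosen with earlier results of these data known. Named are the 10 genes, Mcu, the listed pathway genes that passed for AKO or for the difference and otherwise up to 4 per comparison with the smallest p, and 1 nearest gene per member. Some genes that the rule names are not reported here.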

Additional observations from a re-analysis of the deposited data

Results flagged for a closer look

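Genes were flagged among the 10 and the list of 41 by either of 2 rules. The difference of the AKO effects passed the test, or the AKO libraries lay apart from controls in opposite directions in the 2 depots. Of all genes, 16.6% lay apart as lower in WAT AKO and 10.2% as higher in BAT AKO, and the share with both was not counted. The 3 genes given here follow. For Lipa, the lysosomal acid lipase, the log2 fold change in BAT exceeded that in WAT by 1.23, and this difference passed the test (edgeR, adjusted p = 0.0228). For the other 2 the difference missed the threshold, but each AKO library lay below each control in WAT and above each control in BAT. These were Vldlr, with a difference of 1.12 (adjusted p = 0.111), and Sel1l, which takes part in the maturation of lipoprotein lipase, with 0.59 (0.178). Sel1l was at 149 to 211 CPM in the WAT controls, 105 to 136 in WAT AKO, 79.0 to 87.95 in the BAT controls and 86.9 to 99.9 in BAT AKO, so that on this scale, normalised over 12 libraries, its BAT groups overlapped; they lay apart when normalised over the BAT libraries. Groups of 3 were not tested for outlying libraries.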

How the results depend on the processing

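The number of genes called depended on the method for AKO against control. In WAT it was 3, against 277 without the filter, 1679 by DESeq2, 1 by voom, 0 with the replicate block, 1030 with all 12 libraries in 1 fit, 0 without the muscle-rich libraries and 1 to 1649 leaving out each library. Among the 10 genes it was 0, against 1, 3 and 3 without the filter, by DESeq2 and with 12 libraries, and 0 to 2 leaving out each library. In BAT it was 11 genes, against 33 without the filter, 278 by DESeq2, 1 with the block, 2 without the muscle-rich libraries and 0 to 95. For the difference of effects it was 45, against 132, 965, 24, 261 and 0 without the filter, by DESeq2, by voom, with the block within each genotype and without the muscle-rich libraries, and 2 to 923; among the 10 it was 0, against 1, 3 and 1 without the filter, by DESeq2 and with that block, and 0 to 1. Between depots in controls, 7524 genes became 4763 without the muscle-rich libraries (2415 higher, 2348 lower). The cause was not tested. The replicate block gave 5 members called between depots in controls and changed no call of the 10 between genotypes, where numbers did not pair libraries.

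Values near 0 changed sign. These were, leaving out 1 library, Gpihbp1 in WAT AKO (-0.44 to 0.10), Cd36 (-0.077 to 0.12), Lpl (-0.082 to 0.27) and Fabp5 (-0.011 to 0.26) in BAT AKO, Cd36 between depots in AKO (-0.031 to 0.19), Slc27a4 (-0.032 to 0.083) and Angptl4 (-0.32 to 0.072) between depots in controls, and Slc27a1 (-0.30 to 0.16) and Gpihbp1 (-0.48 to 0.031) for the difference of effects. Slc27a4 there was -0.021 without the filter, and Angptl4 0.086 without the muscle-rich libraries. Fabp4 between depots in AKO was -0.0032 with all 12 libraries. For the difference of effects Slc27a1 was 0.0040 with RLE and 0.0040 by DESeq2. Ratios that changed sign leaving out 1 library were Fabp5 to Fabp4 in BAT AKO (-0.046 to 0.13), Angptl4 to Lpl in WAT AKO (-0.075 to 0.27) and Gpihbp1 to endothelial markers between depots in controls (-0.12 to 0.12).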
